A study of Mus musculus with 18 samples.

Results

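The stefins and cystatins are small proteins that block cysteine proteases, among them most cathepsins. The genes described here are 4 of the mouse stefin A cluster (Stfa1, Stfa2, Stfa3 and Csta3) and 2 other cystatin genes, Cstb (stefin B, an inhibitor found inside most cells) and Cst6 (cystatin M/E, a secreted inhibitor of the upper epidermis). They were chosen by gene symbol, and each of the 6 was named by 1 row of the array table, out of 22180 genes named by 23521 single-gene rows. The choice was made with earlier results of these arrays in view, above all the difference of Csta3 between genotypes 24 h after stripping. That difference is given as a description with no p-value, and the adjusted p-values of the other differences describe these arrays and are no independent support.

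Stefins bind in the active-site cleft of papain-type proteases and leave it again without being cut. Stefin A is a precursor of the cornified envelope, the protein shell of dead keratinocytes, and cystatin M/E keeps cathepsins and legumain in check as that envelope is cross-linked. Human epidermis has a single stefin A gene, whereas the mouse carries a row of near-identical copies that are also active in blood cells such as neutrophils. A probe of one copy can therefore catch RNA of another, and the values of the copies below are uncertain to that extent.

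RNA of epidermal sheets from shaved back skin was read on Affymetrix whole-transcript arrays. The mice were females of a mixed B6;129 background, either AhR-/- (KO, from the line B6.129-AhRtm1Bra/J, in which the aryl hydrocarbon receptor is missing from all cells and not from keratinocytes alone) or AhR+/+ littermates (WT). Skin was unstressed (0 h) or was taken 6 h or 24 h after the outer cornified layers had been pulled off with adhesive film, with 3 arrays in each of the 6 groups. No age is given in the sources used here. Values are on a log scale taken as base 2, and the median of every row over the 18 arrays had been removed, so they show differences between arrays and no absolute level, and levels of different genes cannot be compared. In a bulk sample, fewer cells of a type and less RNA per cell cannot be told apart. Because the row medians had been removed, the level of keratinocyte markers could not be used to check the tissue. Ahr itself lay lower in the 3 KO arrays than in the 3 WT arrays at each time, by 1.11 log2 at 6 h (-1.11, adjusted p = 0.00549). The differences at 0 h and 24 h did not pass an adjusted p of 0.05, and at 0 h the arrays nearly touched (KO up to 0.04, WT from 0.07). Within KO, Ahr also passed as lower after stripping, with means of -0.03 at 0 h, -0.68 at 6 h and -0.66 at 24 h. Both of these results were lost without some single arrays. Nothing in the labels says whether the arrays are separate litters, so the p-values measure the spread between these samples.

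The 4 members of the stefin A cluster have similar promoters. The windows printed here run from 250 bases before the annotated start to 50 bases after it (RefSeq, GRCm38.p6, 5′ to 3′ on the strand of the gene). They are shown because the first 3 genes rose in stripped KO skin, and the row of the last was flat. Capitals mark the TATA-like string TTTAAAA and the AP-1 motif TGANTCA.
Stfa1, chr16:36276898-36277197 (+): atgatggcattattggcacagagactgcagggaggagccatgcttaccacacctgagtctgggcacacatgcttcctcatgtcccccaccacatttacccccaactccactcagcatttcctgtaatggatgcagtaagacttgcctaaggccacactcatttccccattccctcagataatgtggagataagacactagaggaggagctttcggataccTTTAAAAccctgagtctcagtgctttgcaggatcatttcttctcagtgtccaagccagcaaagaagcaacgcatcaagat
Stfa3, chr16:36455343-36455642 (-): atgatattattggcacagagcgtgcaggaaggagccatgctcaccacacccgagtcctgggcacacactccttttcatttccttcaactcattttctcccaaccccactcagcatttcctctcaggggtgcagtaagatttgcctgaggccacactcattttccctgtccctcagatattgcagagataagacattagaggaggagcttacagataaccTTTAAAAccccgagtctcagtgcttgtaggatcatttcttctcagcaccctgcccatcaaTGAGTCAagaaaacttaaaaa
Csta3, chr16:36210153-36210452 (+): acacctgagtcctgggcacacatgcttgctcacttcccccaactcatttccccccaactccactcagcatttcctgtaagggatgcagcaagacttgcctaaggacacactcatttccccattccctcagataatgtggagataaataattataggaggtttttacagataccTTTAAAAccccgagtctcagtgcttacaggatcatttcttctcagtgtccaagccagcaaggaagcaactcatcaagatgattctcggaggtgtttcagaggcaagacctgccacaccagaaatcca
Stfa2, chr16:36408314-36408613 (-): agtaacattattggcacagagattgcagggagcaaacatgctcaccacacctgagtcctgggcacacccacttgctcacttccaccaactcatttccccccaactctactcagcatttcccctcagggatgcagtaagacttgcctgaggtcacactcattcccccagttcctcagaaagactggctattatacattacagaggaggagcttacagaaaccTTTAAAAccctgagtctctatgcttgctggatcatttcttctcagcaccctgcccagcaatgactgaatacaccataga
Over the aligned bases, gaps left out, the Stfa1 window was 90.8% identical to that of Csta3, 85.0% to that of Stfa3 and 81.4% to that of Stfa2. All 4 windows held TTTAAAA once, starting at -31 in Stfa3, -30 in Stfa1, -29 in Stfa2 and -77 in Csta3, whereas 8.74% of 32851 promoters of the same length held it on either strand. The AP-1 motif, which reads the same on both strands, was found in Stfa3 at position 30 after the start and in 7.81% of all promoters. The core GCGTG of AhR binding sites was found in Stfa3, at -231, and not in the other 3 windows, and 32.4% of all promoters held it on either strand. None of these matches overlapped another, and a match or its lack says nothing here about binding. Stfa2l1, a further copy of the cluster, had a window 92.9% identical to that of Stfa2, and its row rose by 1.81 log2 from 0 h to 24 h in KO. The window closest to that of Stfa1 was that of another copy, Cstdc5 (96.4% identical, and 92.6% to Csta3). The row of Cstdc5 was flat, with a change of -0.04 from 0 h to 24 h in KO.

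Stfa1, the stefin A copy with the widest range, had values of -1.98, -0.31 and 0.50 in unstressed WT skin and of -0.95, -2.13 and -1.98 in unstressed KO skin (replicates 1, 2 and 3). After 6 h it read -0.72, -1.14 and -1.46 in WT against 1.82, 0.68 and 1.27 in KO. After 24 h it read -1.33, 0.31 and 1.01 in WT against 2.44, 1.52 and 1.78 in KO. Every KO array after stripping was thus above every KO array before it, and the WT arrays of 0 h and 24 h were widely spread. Stfa1 varied more over the 18 arrays (SD 1.48) than 99.97% of rows.

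Stfa3 followed the same course over a smaller range. In WT it read -0.95, -0.37 and 0.58 before stripping, -0.07, -0.75 and -1.06 after 6 h, then -0.30, 0.66 and 1.0 after 24 h. In KO it read -0.74, -1.40 and -1.51 before stripping, 0.85, 0.07 and 0.19 after 6 h, then 1.88, 1.5 and 1.5 after 24 h. The KO arrays of 24 h stood above all other 15 arrays. The row of Stfa3 had a Pearson r of 0.94 with that of Stfa1 over the 18 arrays.

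Csta3 was high in KO at 24 h and in 1 of the KO arrays of 6 h. In WT it read -0.21, -0.07 and 0.23 before stripping, -0.19, -0.06 and -0.20 after 6 h, then 0.05, -0.01 and 0.48 after 24 h. In KO it read -0.18, -0.18 and -0.17 before stripping, 1.23, 0.01 and 0.14 after 6 h, then 3.28, 1.58 and 2.80 after 24 h. At 6 h KO replicate 1 stood apart from the other two, and at 24 h all KO arrays were above all other arrays. Stfa2 lay between -0.07 and 0.09 in all 18 arrays, and 8.46% of rows had a lower SD. Without an absolute level, a row this flat could not be told from one at background.

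**Figure D1:**
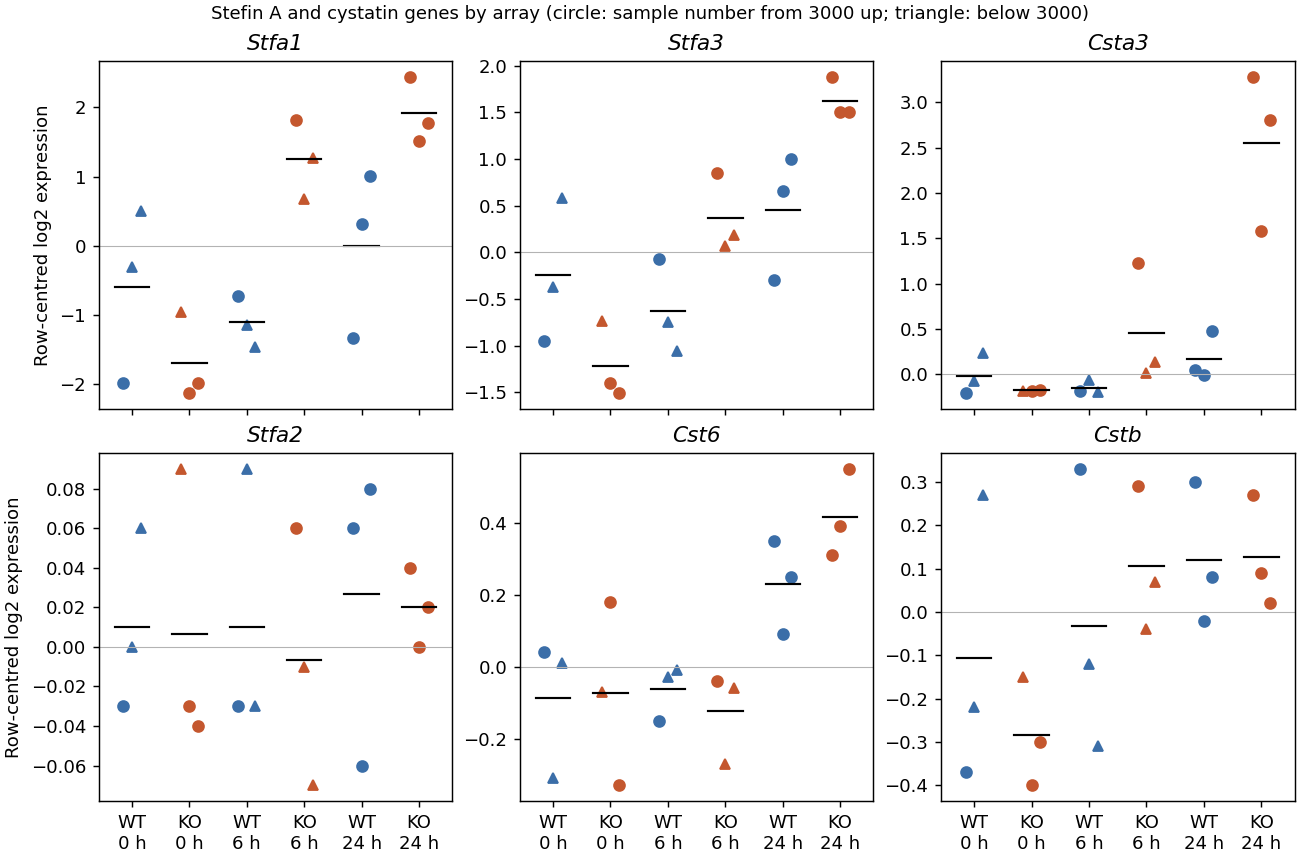
Row-centred log2 expression of the 6 genes in each of the 18 arrays, by genotype and time, with a bar at the mean of each group of 3; circles and triangles are arrays with sample numbers from 3000 up and below 3000, and each panel has its own vertical scale. Stfa1 and Stfa3 are high in KO at 6 h and 24 h, Csta3 is high in KO at 24 h (1.58 to 3.28), and Stfa2 stays between -0.07 and 0.09.

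Cst6 and Cstb moved less than Stfa1, Stfa3 and Csta3, though 86.5% and 85.9% of rows had a lower SD than theirs. Before stripping, Cst6 read 0.04, -0.31 and 0.01 in WT against -0.07, 0.18 and -0.33 in KO. After 6 h it read -0.15, -0.03 and -0.01 in WT against -0.04, -0.27 and -0.06 in KO. After 24 h it read 0.35, 0.09 and 0.25 in WT against 0.31, 0.39 and 0.55 in KO, above the unstressed arrays of the same genotype. Cstb ranged from -0.40 to 0.33 over all arrays, with a mean of -0.28 ± 0.13 (SD, n = 3) in KO at 0 h and 0.13 ± 0.13 (SD, n = 3) in KO at 24 h.

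In the order of group means, KO at 24 h came first for Stfa1, Stfa3, Csta3, Cst6 and Cstb, and KO at 0 h came last for Stfa1, Stfa3, Csta3 and Cstb. For Stfa1 the order was KO 24 h (1.91 ± 0.47), KO 6 h (1.26 ± 0.57), WT 24 h (-0.00 ± 1.2), WT 0 h (-0.60 ± 1.26), WT 6 h (-1.11 ± 0.37) and KO 0 h (-1.69 ± 0.64; SD, n = 3 each), and the arrays of each neighbouring pair overlapped. For Csta3, KO 24 h (2.55 ± 0.88) was clear of KO 6 h (0.46 ± 0.67), and for Stfa3, KO 24 h (1.63 ± 0.22) was clear of WT 24 h (0.46 ± 0.67). The other neighbours of Stfa3 and Csta3 overlapped. For Cst6, WT 24 h (0.23 ± 0.13) was clear of WT 6 h (-0.06 ± 0.08) and its other neighbours overlapped, as did all those of Cstb and Stfa2.

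The response to stripping within each genotype was compared with the arrays of 0 h. At 24 h in KO, Stfa1 rose by 3.60 log2 (SE 0.61, adjusted p = 0.0034), a 12.1-fold difference. Stfa3 rose by 2.85 (SE 0.39, adjusted p = 0.00162), 7.19-fold, and Csta3 by 2.73 (SE 0.35, adjusted p = 0.00135), 6.63-fold. Cst6 rose by 0.49 (SE 0.12, adjusted p = 0.0221), 1.41-fold. Cstb differed by 0.41 (adjusted p = 0.159). So 4 of the 6 members were called, all higher, while at 24 h in KO 9.56% of all rows were called and 3.09% were called higher, and the median difference was 1.61 over the members and 0.02 over all rows. The arrays of 24 h and 0 h did not overlap in 5 members, all higher, which held for 15.8% of all rows. The calls of Stfa1, Stfa3 and Csta3 held whichever array was left out. That of Cst6 was lost without KO replicate 1 (adjusted p = 0.0511) or 3 (0.111) of 0 h, or KO replicate 2 (0.0513) or 3 (0.084) of 24 h.

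At 6 h in KO, Stfa1 rose by 2.94 log2 (SE 0.61, adjusted p = 0.0168), 7.68-fold, and Stfa3 by 1.59 (SE 0.39, adjusted p = 0.0342), 3.0-fold. Csta3 differed by 0.64 (SE 0.35, adjusted p = 0.328), and by 0.25 without KO replicate 1 of 6 h. Cstb differed by 0.39 (adjusted p = 0.207). These 2 of 6 members were called, both higher, against 4.98% of all rows (1.57% higher). The arrays of 6 h and 0 h did not overlap in Stfa1, Stfa3, Csta3 and Cstb, all higher, as in 11.9% of all rows. Both calls ended after quantile normalisation, with 2.35 (adjusted p = 0.0505) for Stfa1 and 1.27 (adjusted p = 0.101) for Stfa3. The call of Stfa1 was lost without KO replicate 2 (adjusted p = 0.0753) or 3 (0.0665) of 0 h. That of Stfa3 was lost without the same arrays (0.119 and 0.128) or without KO replicate 1, 2 or 3 of 6 h (0.0839, 0.0558 and 0.069).

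In WT no member was called at either time, where 0% of all rows were called at 6 h (0 rows in limma, with 1086 at an unadjusted p under 0.05) and 0.0298% at 24 h. The latter share is 7 rows, and it became 210 rows after quantile normalisation and 390 within sample numbers from 3000 up. At 6 h Stfa1 differed by -0.51 (SE 0.61) and Stfa3 by -0.38 (SE 0.39). At 24 h Stfa1 differed by 0.59 (SE 0.61, adjusted p = 0.764), Stfa3 by 0.70 (SE 0.39, adjusted p = 0.505), Csta3 by 0.19 (SE 0.35) and Cst6 by 0.31 (SE 0.12, adjusted p = 0.3). Cst6 was the 1 member whose arrays did not overlap there, higher at 24 h as in 9.31% of all rows. The WT arrays of 0 h ran from -1.98 to 0.50 in Stfa1. Without WT replicate 1 of 0 h the 24 h difference of Stfa1 was -0.10, and without WT replicate 3 its 6 h difference was 0.04 and that of Stfa3 0.04.

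Each sample also carries a number in its label, with no word on what it counts, and at 0 h Stfa1 and Stfa3 moved with it. In arrays numbered from 3000 up, Stfa1 averaged -2.05 in KO (2 arrays) and was -1.98 in WT (1 array) at 0 h. Below 3000 it was -0.95 in KO (1 array) and averaged 0.09 in WT (2 arrays). The 24 h arrays are all in the upper class. Within it, Stfa1 at 24 h differed from 0 h by 3.97 in KO (adjusted p = 0.00815) and 1.97 in WT (SE 0.75, adjusted p = 0.224). Stfa3 differed by 3.08 in KO (adjusted p = 0.00406) and 1.41 in WT (adjusted p = 0.131), and Csta3 by 2.73 in KO (adjusted p = 0.0089) and 0.38 in WT. There Cst6 lost its call in KO (0.50, adjusted p = 0.0809), with 0.19 in WT, and Cstb in KO passed (0.48, adjusted p = 0.0323), with 0.48 in WT. At 6 h, Stfa1 in KO differed from 0 h by 1.93 below 3000 and 3.87 from 3000 up, and Stfa1 in WT by -1.39 and 1.26, so that its sign in WT turned between the number classes. Stfa3 did the same, with 0.87 and 2.31 in KO and -1.01 and 0.89 in WT. A group with 1 array in a class is assumed to vary like the others.

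The second question was whether the genotypes differ at a given time. At 6 h, Stfa1 was 2.36 log2 higher in KO than in WT (SE 0.61, adjusted p = 0.0588), a 5.14-fold difference that did not pass. Within numbers below 3000 the difference was 2.27 (adjusted p = 0.0172) and from 3000 up, with 1 array against 1, it was 2.54 (adjusted p = 0.707). Stfa3 differed by 0.99 (SE 0.39, adjusted p = 0.22) and Csta3 by 0.61 (SE 0.35, adjusted p = 0.434). Within numbers below 3000 Csta3 differed by 0.21 and from 3000 up by 1.42. Of the 6 members 0 were called, against 2.18% of all rows, and 2 had an unadjusted p under 0.05. KO arrays lay above WT arrays without overlap in Stfa1, Stfa3 and Csta3, which held for 7.42% of all rows.

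At 24 h, Csta3 was 2.38 log2 higher in KO than in WT (SE 0.35), a 5.20-fold difference, and quantile normalisation made it 1.53. It is the 1 member that met the call rule, which 0.017% of all rows met (0.0128% in the higher direction), and nothing is read from this because the member was chosen for it. It no longer met the rule once KO replicate 1 or 3, or any single WT array of 24 h, was left out, where the difference lay between 2.02 and 2.53. Stfa1 differed by 1.92 (SE 0.61), which did not meet the rule, and by 1.25 without WT replicate 1 of 24 h. Stfa3 differed by 1.17 (SE 0.39), which did not meet it either, and by 0.62 after quantile normalisation. In these 3 genes the KO arrays lay above the WT arrays without overlap, against 6.36% of all rows. Cst6 differed by 0.19, with a 95% confidence interval of -0.07 to 0.46, and Cstb by 0.01, with an interval of -0.36 to 0.37.

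At 0 h the sign was the other way. Stfa1 differed by -1.09 (SE 0.61, adjusted p = 0.703) and Stfa3 by -0.97 (SE 0.39, adjusted p = 0.5). Of the 6 members 0 were called, against 0.0978% of all rows. Without WT replicate 1 of 0 h the difference of Stfa1 was -1.78, and without WT replicate 3 it was -0.54, with -0.56 for Stfa3. Within numbers below 3000 the difference of Stfa1 was -1.04 and from 3000 up it was -0.07, and that of Stfa3 was -0.85 and -0.50.

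**Figure D2:**
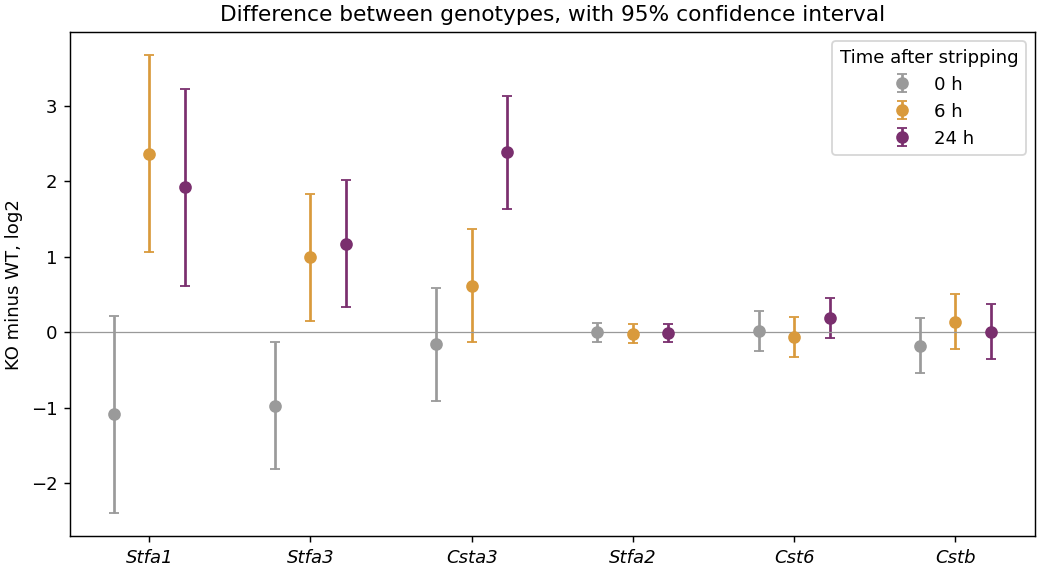
KO minus WT difference in log2 for the 6 genes at 0, 6 and 24 h after stripping, with the 95% confidence interval of the shared limma model (3 arrays against 3). Stfa1 and Stfa3 lie below 0 at 0 h and above 0 at 6 h and 24 h, Csta3 reaches 2.38 at 24 h, and Stfa2, Cst6 and Cstb stay near 0.

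The difference between genotypes in the response itself was tested as an interaction. For the 6 h response, Stfa1 rose 3.45 log2 more in KO than in WT (SE 0.87, adjusted p = 0.0805) and Stfa3 1.96 more (SE 0.56, adjusted p = 0.114), values that did not pass. Of the members 0 were called, against 0.731% of all rows. Without WT replicate 1 of 0 h the values were 4.14 (adjusted p = 0.0166) and 2.31 (adjusted p = 0.0362). Within numbers below 3000 Stfa1 passed (3.32, adjusted p = 0.0474) and from 3000 up it did not (2.61, adjusted p = 0.704). The 24 h interaction contains the genotype difference at 24 h that Csta3 was chosen for, so its values are given as a description. They were 3.0 for Stfa1 (SE 0.87), 2.14 for Stfa3 (SE 0.56) and 2.54 for Csta3 (SE 0.50), and 1.99, 1.68 and 2.35 within numbers from 3000 up. By limma 0% of all rows were called there, and 2165 had an unadjusted p under 0.05. The comparisons above share arrays (KO at 0 h serves both responses in KO, and KO at 24 h serves the difference that Csta3 was chosen for), so they are not separate evidence.

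Around the members, 7 further genes of the stefin A cluster were measured, namely Csta1, Stfa2l1, Cstdc4, Csta2, Cstdc3, Cstdc6 and Cstdc5. At 24 h in KO, Stfa2l1 rose by 1.81 log2 (SE 0.30, adjusted p = 0.0028) and Cstdc6 by 1.13 (SE 0.32, adjusted p = 0.0393). The call of Cstdc6 was lost without any one array of KO at 0 h and without KO replicate 1 or 2 of 24 h (adjusted p up to 0.144). Csta1 differed by -0.25, Cstdc3 by 0.45, and Csta2, Cstdc4 and Cstdc5 by -0.04 to 0.04. Against WT at 24 h, Stfa2l1 differed by 1.71 (adjusted p = 0.09), with KO arrays at 2.66, 1.02 and 1.56 and WT arrays at -0.07, -0.01 and 0.19. In the order of the chromosome, the genes with the largest changes do not sit side by side: Cstdc4 lies between Stfa2l1 and Csta3, Csta2 between Csta3 and Stfa1, and Stfa2 beside Stfa3.

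**Figure D3:**
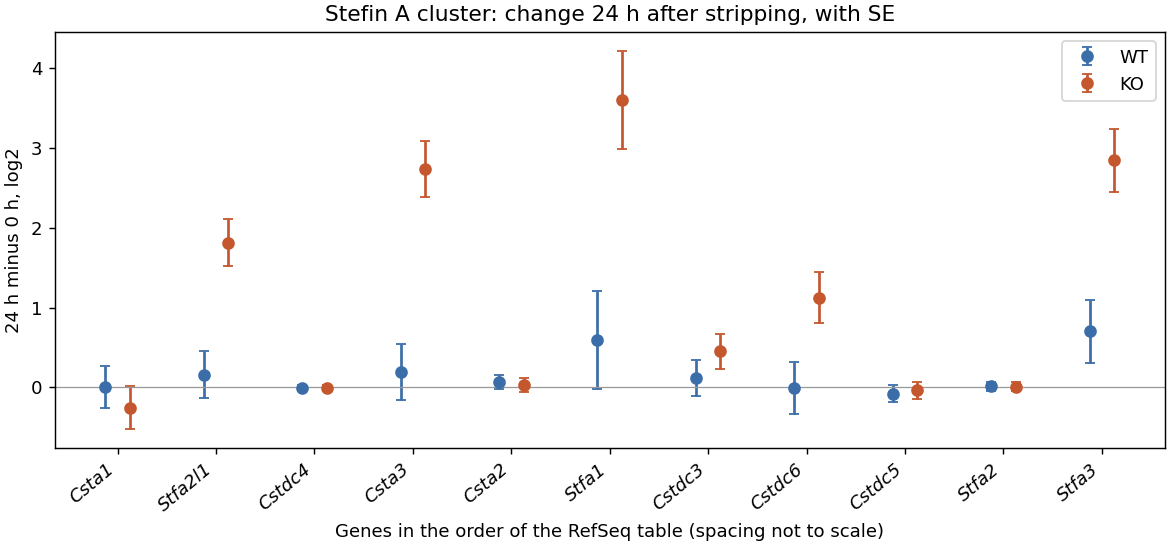
Change in log2 from 0 h to 24 h after stripping, with its SE, for the 11 measured genes of the stefin A cluster in chromosome order, in WT and KO (3 arrays per group). Stfa1 (3.60), Stfa3 (2.85), Csta3 (2.73), Stfa2l1 (1.81) and Cstdc6 (1.13) are the high points in KO, and the rows of Cstdc4, Csta2, Cstdc5 and Stfa2 lie at about 0 in both.

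Other cystatins did not pass anywhere. Among the 13 measured were Cst3, the secreted cystatin C, and Cst7, cystatin F of immune cells. In each of the 9 comparisons 0 were called, where 0% to 9.56% of all rows were called. For 13 genes, 0 calls is close to that share. Their median difference at 24 h in KO was 0.04, beside 0.02 over all rows.

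The cathepsins and legumain were looked at next. The list also holds Ctsa, Ctsd and Ctse, which are not cysteine proteases, so it is wider than the targets of these inhibitors. Of 14 measured genes of the cathepsins and legumain, 6 were called at 6 h in KO, 4 higher and 2 lower, beside 4.98% of all rows called (1.57% higher), with a list median of 0.03 against 0.02 over all rows. Legumain (Lgmn), an asparagine-cutting protease that cystatin M/E inhibits, rose by 0.90 log2 (adjusted p = 0.0198). The cathepsin genes Ctss, typical of antigen-presenting cells, Ctsz and Ctsc rose by 0.81, 0.60 and 0.44 (adjusted p = 0.0361, 0.0122 and 0.0379). Ctso and Ctsf fell by 0.62 and 0.46 (adjusted p = 0.0188 and 0.0353). Of these, Ctsz alone passed whichever array was left out, and the call of Lgmn was lost without KO replicate 2 (adjusted p = 0.0859) or 3 (0.0691) of 0 h. Within numbers below 3000 Lgmn differed by 0.52 and from 3000 up by 1.46. The calls of Ctss, Ctsc, Ctso and Ctsf were lost without KO replicate 2 or 3 of 0 h or without KO replicate 3 of 6 h, with an adjusted p up to 0.151, and Ctss and Ctsc also without KO replicate 1 of 6 h and Ctss, Ctsc and Ctsf without KO replicate 2 of 6 h. In WT at 6 h 0 of 14 were called, as was 0% of all rows by limma (1086 at an unadjusted p under 0.05).

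Ctsz was also higher in KO than in WT at 6 h, by 0.51 (SE 0.11, adjusted p = 0.0307), with KO arrays between 0.24 and 0.44 and WT arrays between -0.34 and -0.01. That call was lost without KO replicate 1, 2 or 3 or WT replicate 2 or 3 of 6 h (adjusted p up to 0.128). At 24 h in KO, Ctso fell by 0.79 (adjusted p = 0.00329) and was the 1 of 14 called, beside 9.56% of all rows. The list median was 0.26 there, against 0.02 over all rows. The enzymes of envelope cross-linking and processing (Tgm1, Tgm3, Tgm5, Casp14, Blmh and Asprv1) gave 0 calls of 6 in each of the 9 comparisons. Over all rows, 0% to 9.56% were called in these comparisons. Of 13 other epidermal protease inhibitors, Spink5, the kallikrein inhibitor, fell by 0.80 at 24 h in KO (adjusted p = 0.00851), and Serpina12 was lower in KO than in WT at 6 h, by 0.94 (adjusted p = 0.0384). Each was the 1 call of 13 in its comparison, beside 9.56% and 2.18% of all rows. Spink5 went the same way in WT without a call, from a mean of 0.22 at 0 h to -0.42 at 24 h, beside 0.28 and -0.52 in KO. The call of Serpina12 was lost without KO replicate 1, 2 or 3 or WT replicate 2 or 3 of 6 h (adjusted p up to 0.157).

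**Figure D4:**
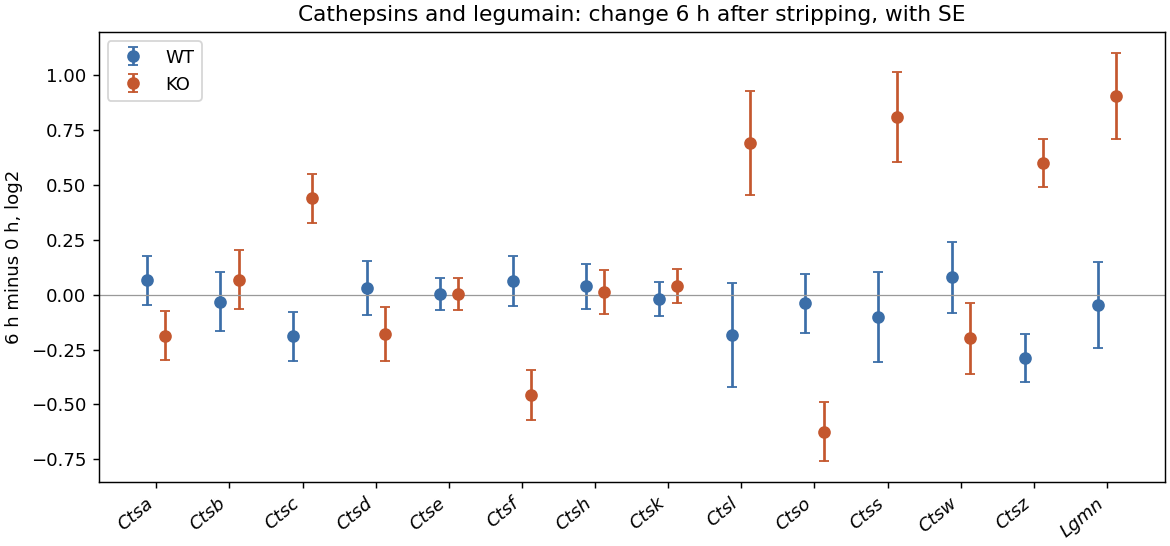
Change in log2 from 0 h to 6 h after stripping, with its SE, for the 14 genes of cathepsins and legumain in WT and KO (3 arrays per group). In KO, Lgmn (0.90), Ctss (0.81), Ctsz (0.60) and Ctsc (0.44) are higher and Ctso and Ctsf lower, while no WT value passed the test.

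Since mouse stefin A genes are also active in neutrophils, their markers were set beside these values. Of 19 measured neutrophil markers, 3 were called at 24 h in KO, all higher, beside 9.56% of all rows called and 3.09% called higher. S100a9 rose by 0.84 (adjusted p = 0.0028) and Lcn2 by 2.04 (adjusted p = 0.00729), 2 genes that stressed keratinocytes also make, and the granule gene Ngp by 0.28 (adjusted p = 0.0289). The call of Ngp was lost without KO replicate 1 (adjusted p = 0.0568) or 3 (0.135) of 0 h, or KO replicate 2 (0.0798) or 3 (0.12) of 24 h. Summed over the 11 defining markers (Ly6g, Ngp, Camp, Ltf, Retnlg, Cd177, Mmp8, Cxcr2, Csf3r, Mpo and Elane), the centred values ran in KO from -0.93 to -0.20 before stripping, from 0.49 to 2.74 after 6 h, then from 0.94 to 1.44 after 24 h. WT sums ran from -0.89 to -0.13 before stripping, from -0.79 to 0.32 after 6 h, then from -0.22 to 0.51 after 24 h. Much of the sum at 6 h in KO came from Cxcr2, a chemokine receptor, which read 2.52, -0.07 and 0.58 there. With all 11 markers, the KO sums thus lay above the WT sums at 6 h and 24 h without overlap. Cxcr2 was then left out, a choice made after its values were seen. The other 10 markers summed to -0.51 to -0.19 in KO and -0.53 to -0.14 in WT at 0 h. At 6 h they summed to 0.21 to 0.55 in KO and -0.33 to 0.28 in WT, and at 24 h to 0.36 to 1.10 and -0.25 to 0.47. So the genotypes overlapped without Cxcr2, while the KO arrays of 6 h and 24 h still lay above those of 0 h. By sign, 10, 14 and 16 of the 19 markers were higher in KO than in WT at 0, 6 and 24 h. Their median at 24 h was 0.06, against -0.0006 over all rows. Within KO, 16 of the 19 were higher at 6 h than at 0 h, and 17 at 24 h. The part of neutrophils in the result was not tested. Between genotypes, 0 of the 19 were called by limma at any time, where 0.0978%, 2.18% and 0.017% of all rows were called at 0, 6 and 24 h, and whether a marker is absent cannot be seen in centred values.

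Monocyte and macrophage markers had 3 of 12 called at 24 h in KO (Cd14 by 0.74, C1qb by 0.68 and C1qa by 0.46, all higher), beside 9.56% of all rows (3.09% higher). At 6 h in KO 2 of 12 were called, C1qa and C1qb, both higher, beside 4.98% of all rows (1.57% higher). By sign, 9 of the 12 were higher at 24 h and 10 at 6 h in KO. Adgre1 went the other way at 24 h, from a mean of -0.07 at 0 h to -0.28. C1qa was also higher in KO than in WT at 6 h, by 0.59 (adjusted p = 0.0273), a call lost without KO replicate 3 or WT replicate 2 or 3 of 6 h. The 5 calls within KO were lost without 1 or more single arrays (adjusted p up to 0.173), and their part in the result was not tested either.

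Among 4 wound keratins, the genes switched on in keratinocytes of injured skin, Krt6a, Krt6b and Krt16 were called higher in KO at both times. Beside them, 4.98% of all rows were called at 6 h (1.57% higher) and 9.56% at 24 h (3.09% higher). Krt17, the fourth, was called in none of the 9 comparisons. Its means at 0, 6 and 24 h were -0.21, -0.14 and 0.21 in KO and 0.04, 0.03 and 0.18 in WT. At 24 h in KO, Krt6b rose by 5.34, Krt6a by 3.72 and Krt16 by 3.40 (adjusted p = 0.00204, 0.00698 and 0.00165), and Krt6b by 3.47 after quantile normalisation. Between genotypes, Krt6b was called higher in KO at 6 h, by 3.21 (adjusted p = 0.0499), a call lost without KO replicate 1 or 3 or any WT array of 6 h (adjusted p up to 0.161). It was also lost in 5 of 6 other fits (adjusted p of 0.0529 with the number class as a block up to 0.188 with only the groups compared) and held after quantile normalisation (0.0377). At 6 h in KO the call of Krt6a was lost without any single array (adjusted p up to 0.0982) and that of Krt6b without KO replicate 2 or 3 of 0 h or KO replicate 3 of 6 h (up to 0.0703). Summed over 9 keratinocyte markers, the centred values in KO ran from -1.48 to 0.12 before stripping, from -2.54 to -1.22 after 6 h, then from -2.55 to -0.90 after 24 h. In WT they ran from 0.57 to 1.63, from -0.48 to 1.93, then from -0.03 to 0.26, so every KO array lay below every WT array of its time, stripped or not. Between genotypes 7 of the 9 were lower in KO at each time by sign, with a median of -0.16, -0.28 and -0.18, and their part in the differences of the stefin A genes was not tested. Of these markers, Krt14 and Krt1 were called higher and Trp63 and Ivl lower at 24 h in KO, and between genotypes Krt1 was lower in KO at 0 h and Krt15 at 6 h. Of these 6 calls, that of Krt14 held whichever array was left out.

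Over the 18 arrays, the rows most like Stfa1 were those of Gsta4, a glutathione transferase (Pearson r = 0.96), Uck2 (0.95) and the wound keratins Krt6b (0.94), Krt16 (0.93) and Krt6a (0.93). Those most like Stfa3 were Fabp5, a fatty acid carrier of keratinocytes (0.93), Sprr1b, a cornified envelope precursor (0.91), Psph (0.91), Gsta4 (0.90) and Aprt (0.90). For Csta3 they were S100a9, a subunit of calprotectin (0.95), Gjb2, the connexin 26 gene (0.94), Pdpn (0.93), Klk13 (0.93) and Chil1 (0.92). Cst6 was closest to the mitosis genes Cdc20 (0.87) and Plk1 (0.83), then Nmral1 (0.82), Uchl1 (0.82) and Slc9a3r1 (0.81). Cstb was closest to Psmd4 (0.93), Lsm7 (0.92), Rpl6l (0.91), Elob (0.91) and Psmb7 (0.91). Stfa2 had no row above 0.74, the value of Wbp1. These coefficients are descriptions over arrays that share their groups.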

How the data were processed

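Epidermal RNA of 18 mice was read on Affymetrix arrays. The authors deposited 1 table of 33793 rows by 18 arrays, with no stated unit. Its values are taken as log2 from the deposited numbers themselves (a natural log is also possible, and would make every difference larger by 1 constant factor), and every row was centred on its median. For background correction, normalisation and software: not given in the sources used here. The number of arrays limits the precision.

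GEO's platform annotation gave the gene names: 23521 rows had 1 gene, 1814 several and 8458 none, and 0 rows of several genes held a member. Tests used limma 3.58.1 in R 4.3.3, with 1 mean per group over all 18 arrays (12 residual and 2.76 prior degrees of freedom), 9 contrasts and Benjamini-Hochberg adjustment over all 23521 single-gene rows. A row was called at an adjusted p under 0.05. An exact permutation test of 3 arrays against 3 cannot give a two-sided p below 0.1 and is not used. The fit was tested on simulated data.

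The members, the lists (written from general knowledge) and the naming rule were chosen with earlier results of these data known. The 6 members are named everywhere, list genes when called or among the smallest p, and likeness takes the 5 highest Pearson r per member, predicted genes and cluster copies left out. Where a gene had several rows, the row with the largest SD was used. Alternatives were quantile normalisation, limma's trend and robust options, only the groups compared, the replicate number or the number class as a block, all rows, each array left out in turn, and fits within a number class. Promoter windows of GRCm38.p6 from RefSeq were matched for 4 of the 6 members (not Cstb or Cst6).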

Additional observations from a re-analysis of the deposited data

Results flagged for a closer look

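Ctsz differed between the genotypes in its 6 h response, by 0.89 log2 more in KO than in WT (SE 0.15, limma interaction, adjusted p = 0.0293). It was called because the interaction test itself passed. The call was lost without any one array of KO at 0 h, WT replicate 2 or 3 of 0 h, KO replicate 3 of 6 h, or WT replicate 2 or 3 of 6 h (adjusted p up to 0.0968).

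Krt16, a wound keratin, differed by the same test, by 3.50 log2 (SE 0.67, adjusted p = 0.0391). Its call was lost without the same arrays (adjusted p up to 0.11), and with only the 12 arrays compared or with all rows.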

How the results depend on the processing

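Of the 7 calls among the members, those of Stfa1, Stfa3 and Csta3 at 24 h in KO held whichever of the 6 arrays was left out and under all 6 other ways of fitting all or part of the arrays, and all 7 kept their sign. The count of members called at 24 h between genotypes was 1 as reported, and 0 with limma's trend and robust options or with only the groups compared, and 0 to 1 with 1 array left out. At 6 h in KO it was 2 as reported, 0 after quantile normalisation, 1 with the replicate number as a block (Stfa3 then had an adjusted p = 0.054), and 0 to 2 with 1 array left out. It was 0 for both interactions as reported, and 0 to 2 (6 h) and 0 to 1 (24 h) with 1 array left out, the latter holding the difference that Csta3 was chosen for. The replicate block changed no other call of a member. No pairing by replicate number was seen. Same-numbered arrays of different groups had a median correlation of -0.02 (45 pairs, -0.46 to 0.25), against 0.01 for other pairs (90 pairs, -0.33 to 0.46). Replicate 1 is in the upper number class in every group but KO at 0 h, so the block is partly tied to that class. Why the call of Stfa3 was lost under it was not tested.

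Within numbers from 3000 up, the 6 h difference in WT was 1.26 for Stfa1, 0.89 for Stfa3 and 0.0162 for Csta3, and the difference between genotypes at 0 h was 0.0318 for Csta3 and 0.0164 for Cstb, each with the sign turned. The interaction of Cstb at 6 h was -0.0586 there. With 1 array left out, the 24 h difference of Stfa1 in WT lay between -0.10 and 1.26, the 6 h difference in WT between -1.20 and 0.0405 for Stfa1 and -0.73 and 0.0363 for Stfa3, and that of Cstb between genotypes at 0 h between -0.306 and 0.0126. The causes were not tested. Of 39 calls of list genes and Ahr, 12 held whichever array was left out, and none changed sign. Over all rows, the count called at 6 h between genotypes was 513 as reported, 0 with only the groups compared and 16 to 1068 with 1 array left out. At 6 h in KO these counts were 1172, 661 and 159 to 1326, and at 24 h in KO 2249, 2404 and 1029 to 1848. At 24 h in WT the count was 7 as reported, 0 with the replicate block, 2 with only the groups compared and 210 after quantile normalisation. Signal over background could not be assessed, since the row level was removed.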
